A study of Mus musculus with 22 samples.

Results

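The DNA replication machinery genes are 42 mouse genes whose products license, fire, copy and supply DNA in S phase, chosen by name from textbook roles and found among the 47311 genes that the transcripts were paired with. They comprise 12 licensing genes, 8 firing genes, 8 polymerase genes, 10 genes of the sliding clamp and lagging strand, and 4 genes of nucleotide supply. Every 1 of the 42 was present in the files, and all 42 passed the low-count filter in every comparison.

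Before a cell copies its DNA, the origin recognition complex binds start sites and, with Cdc6 and Cdt1, loads the ring of MCM proteins that will unwind the helix. Kinases and the factors Cdc45 and GINS then turn the loaded rings into active helicases, polymerases alpha, delta and epsilon make the new strands, and the clamp PCNA holds them to the template. Most of these genes are transcribed ahead of S phase under E2F factors, so their mRNA level is often read as a sign of how much of a population is cycling. Myeloid precursors of the marrow divide often, whereas long-term stem cells are mostly quiescent.

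RNA was measured in 22 libraries sorted from mouse bone marrow. The floxed Arid1a line had been backcrossed to C57BL/6 for 5 generations before it was crossed with Mx1-Cre. WT mice were Arid1a f/f;Mx1-Cre- and KO mice were Arid1a f/f;Mx1-Cre+, sex-matched littermates that all carried the floxed exon 9. Arid1a encodes a subunit of the BAF chromatin remodelling complex. Animals of either genotype received poly(I:C) as 5 doses of 300 µg, when 8 to 14 weeks old, which switches on the interferon-driven Mx1-Cre and is itself an interferon stimulus, and the methods give cell sorting 4 weeks later. Common myeloid progenitors (CMP), granulocyte-macrophage progenitors (GMP) and megakaryocyte-erythroid progenitors (MEP) carry the same 3 WT and 3 KO numbers in the labels. These were taken to be the same mice. Long-term hematopoietic stem cells (LT-HSC) came from 2 WT and 2 KO other mice and were made with another library kit, so their levels were not compared with those of the precursors. Mx1-Cre also acts outside the blood. The paper reports that the floxed exon was fully deleted in the sorted CMP, GMP and MEP cells of KO mice. The deleted share of cells in each sort was not measured here.

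Library totals lay between 40803835 and 65930565 counts. Arid1a itself, given as CPM (counts scaled to a common library size, with TMM-scaled totals), measured 402, 365 and 367 in KO and 451, 426 and 448 in WT libraries of CMP (log2 fold change -0.22). In GMP the values were 239, 281 and 269.4 CPM in KO and 303, 405 and 331 CPM in WT (-0.40), and in MEP 285, 257 and 268 CPM in KO and 301.5, 290 and 304 CPM in WT (-0.14). Every KO library was lower than every WT library of its population. In LT-HSC it measured 50.9 and 53.6 CPM in KO and 119 and 111 CPM in WT. The Arid1a call was lost in CMP without WT 309 (FDR = 0.11) and in MEP without WT 300, KO 304, KO 308 or WT 309 (FDR 0.18 to 0.24), and in LT-HSC, with an FDR of 0.42, it was gained without WT S245 or WT S269 (FDR = 0.0091 and 0.00018). These gene sums also count reads from exons outside the floxed exon, so they do not measure the deletion. Neutrophil and erythroid markers followed the sort labels in the precursors. In TPM (the transcript share of a library, scaled for length), 12 neutrophil genes summed to 30478 to 35910 in WT GMP. They summed to 54.4 to 164 TPM in WT MEP, where 14 erythroid genes summed to 7744 to 8579 TPM. The 10 megakaryocyte genes did not follow the MEP label. Their sums were 32.1 to 56.1 TPM in WT MEP, 110 to 236 TPM in WT GMP and 803 to 1178 TPM in WT CMP. In LT-HSC libraries the stem cell list summed to 977 and 1097 TPM in KO and to 1208 and 1668 TPM in WT. The erythroid list there, which includes Car2 at 2010 to 3042 TPM, summed to 4673 to 6884 TPM. Each replicate number in the labels was taken to be a separate mouse. In sorted pools of this kind, fewer cycling cells and less mRNA per cell cannot be told apart.

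Promoter windows, running from 250 bases before to 50 after an annotated start, were held by RefSeq (GRCm38.p6) for 34 of the 42 genes. E2F letters (TTCCCGC or TTCGCGC or TTGCCGC or TTGGCGC, on either strand) stood in at least 1 window of 21 of the 34 genes, or 61.8%, against 10.9% of the 27025 genes that have a window. CCAAT letters, the binding motif of NF-Y, stood in 21 of 34 (61.8% against 41.1%). GC boxes (GGGCGG) stood in 25 of 34 (73.5% against 38.2%) and the cell cycle homology letters (TTTGAA) in 7 of 34 (20.6% against 20.2%). E2F matches that overlap on opposite strands, as in Mcm6, were each counted. A match is a description of the letters and not a measured binding site.

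Windows of 6 genes are printed because the results return to them, with E2F and CCAAT letters in capitals, 5′ to 3′ on the strand of the gene. They are Mcm6 (minus strand, chr1:128359656-128359955), with the most E2F matches of any member when overlapping ones are each counted, Rrm2 (plus strand, chr12:24708004-24708303) and Cdc45 (minus strand, chr16:18811923-18812222), the members with the largest rise in KO GMP, Orc2 (minus strand, chr1:58505060-58505359) and Cdt1 (plus strand, chr8:122567765-122568064), which moved in opposite directions in KO CMP and MEP, and Rfc5 (minus strand, chr5:117388974-117389273), which was called higher in GMP and lower in MEP.
Mcm6: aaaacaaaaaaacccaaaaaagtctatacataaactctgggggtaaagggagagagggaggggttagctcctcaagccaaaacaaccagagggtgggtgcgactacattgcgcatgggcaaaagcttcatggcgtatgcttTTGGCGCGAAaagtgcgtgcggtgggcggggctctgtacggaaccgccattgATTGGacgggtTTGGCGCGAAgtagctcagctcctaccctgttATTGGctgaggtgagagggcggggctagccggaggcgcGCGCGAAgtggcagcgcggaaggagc
Rrm2: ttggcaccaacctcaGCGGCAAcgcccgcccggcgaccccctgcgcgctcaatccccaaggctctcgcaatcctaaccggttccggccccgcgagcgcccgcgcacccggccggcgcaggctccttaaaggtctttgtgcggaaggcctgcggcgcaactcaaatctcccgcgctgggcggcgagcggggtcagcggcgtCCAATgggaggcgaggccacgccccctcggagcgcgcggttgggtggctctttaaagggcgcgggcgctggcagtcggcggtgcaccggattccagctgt
Cdc45: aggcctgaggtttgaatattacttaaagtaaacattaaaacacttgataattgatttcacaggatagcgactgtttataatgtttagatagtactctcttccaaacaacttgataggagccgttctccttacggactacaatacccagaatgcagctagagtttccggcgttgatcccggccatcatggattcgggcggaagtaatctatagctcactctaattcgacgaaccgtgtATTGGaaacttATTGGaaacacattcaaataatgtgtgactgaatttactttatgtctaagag
Orc2: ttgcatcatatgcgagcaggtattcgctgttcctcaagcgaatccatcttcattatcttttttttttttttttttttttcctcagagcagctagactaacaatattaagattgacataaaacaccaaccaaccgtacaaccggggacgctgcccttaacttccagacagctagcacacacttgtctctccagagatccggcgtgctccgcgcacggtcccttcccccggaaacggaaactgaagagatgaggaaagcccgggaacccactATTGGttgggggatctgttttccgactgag
Cdt1: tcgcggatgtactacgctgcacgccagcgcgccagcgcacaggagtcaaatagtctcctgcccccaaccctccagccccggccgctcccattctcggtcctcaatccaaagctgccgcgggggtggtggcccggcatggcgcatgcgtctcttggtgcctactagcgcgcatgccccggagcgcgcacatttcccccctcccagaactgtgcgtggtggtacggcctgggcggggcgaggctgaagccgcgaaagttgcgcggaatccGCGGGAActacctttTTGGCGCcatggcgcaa
Rfc5: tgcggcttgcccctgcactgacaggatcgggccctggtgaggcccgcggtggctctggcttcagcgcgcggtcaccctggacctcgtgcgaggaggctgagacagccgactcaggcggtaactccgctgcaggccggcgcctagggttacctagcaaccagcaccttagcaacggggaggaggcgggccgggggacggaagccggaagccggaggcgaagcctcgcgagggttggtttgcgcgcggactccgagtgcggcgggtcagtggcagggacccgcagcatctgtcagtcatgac

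The Mcm6 window held 5 E2F and 2 CCAAT matches. Some of its E2F matches overlap on opposite strands, whereas the 4 E2F matches of Pola1 do not overlap. That of Rrm2 held 1 of each and that of Cdt1 held 2 E2F matches and no CCAAT. Cdc45 and Orc2 held no E2F match, with 2 and 1 CCAAT matches, and the Cdc45 window also held 2 TTTGAA matches and 1 GC box. Rfc5 held none of the 4 motifs. Members with and without E2F letters had medians of the KO effect of 0.10 (21 genes) and 0.11 (13 genes) in GMP and of 0.11 and 0.03 in MEP, on the log2 scale.

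**Figure D1:**
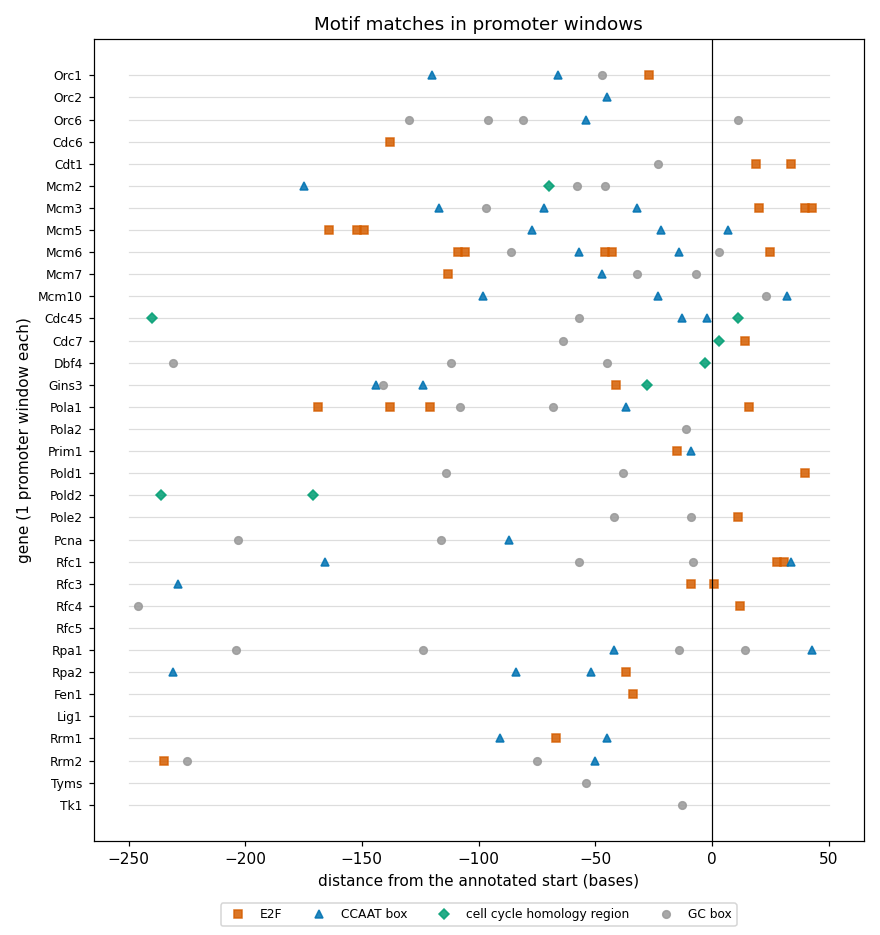
Matches of 4 motifs in the promoter windows of 34 genes, 1 window each, by distance in bases from the annotated start (x axis). Where a gene has more windows, the one with the lowest start coordinate is drawn. E2F letters stand in at least 1 window of 21 of the 34 genes. Rfc5 and the drawn window of Lig1 show no match, and E2F matches (squares) of Lig1 lie in its other windows, which are not drawn.

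KO against WT was tested in each population apart, and a gene was called at a Benjamini-Hochberg adjusted p (FDR) under 0.1. In CMP 4 of 42 genes were called, in GMP 10 and in MEP 12, against 23.4%, 33.9% and 29.4% of all genes tested. That makes 9.52% of members in CMP, 23.8% in GMP and 28.6% in MEP. In none of the 3 was the share of members above that of all genes in these fits, which did not block the mice. With the mice blocked in the authors' pairs, the share was above that of all genes in GMP and MEP, as given below. Direction differed more: in GMP all 10 rose, where 17.5% of genes rose and 16.3% fell. In MEP 8 rose and 4 fell (14% and 15.4% of all genes), and in CMP 1 rose and 3 fell (10.6% and 12.8%). KO libraries lay wholly above WT libraries for 2 members and wholly below for 10 in CMP (15.7% and 18.3% of all genes), for 16 and 0 in GMP (21.5% and 20.8%) and for 11 and 4 in MEP (18.7% and 20%). The members' log2 fold changes had a median of -0.06 for CMP, 0.11 for GMP and 0.05 for MEP, beside medians of all genes of -0.003, -0.01 and -0.002, respectively. These are small shifts, and the median SE of a single member was 0.06 to 0.07.

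The GMP direction held on CPM but not on deposited TPM, where 12 of 42 members were positive and the members' median difference was -0.06 against -0.10 for all genes tested. In CMP, 28 members were positive on TPM, with a median of 0.05 against 0.07. Relative to all genes, members were therefore higher in GMP and lower in CMP on either scale. Of the 26 calls over CMP, GMP and MEP, only that of Fen1 in GMP changed sign on TPM.

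**Figure D2:**
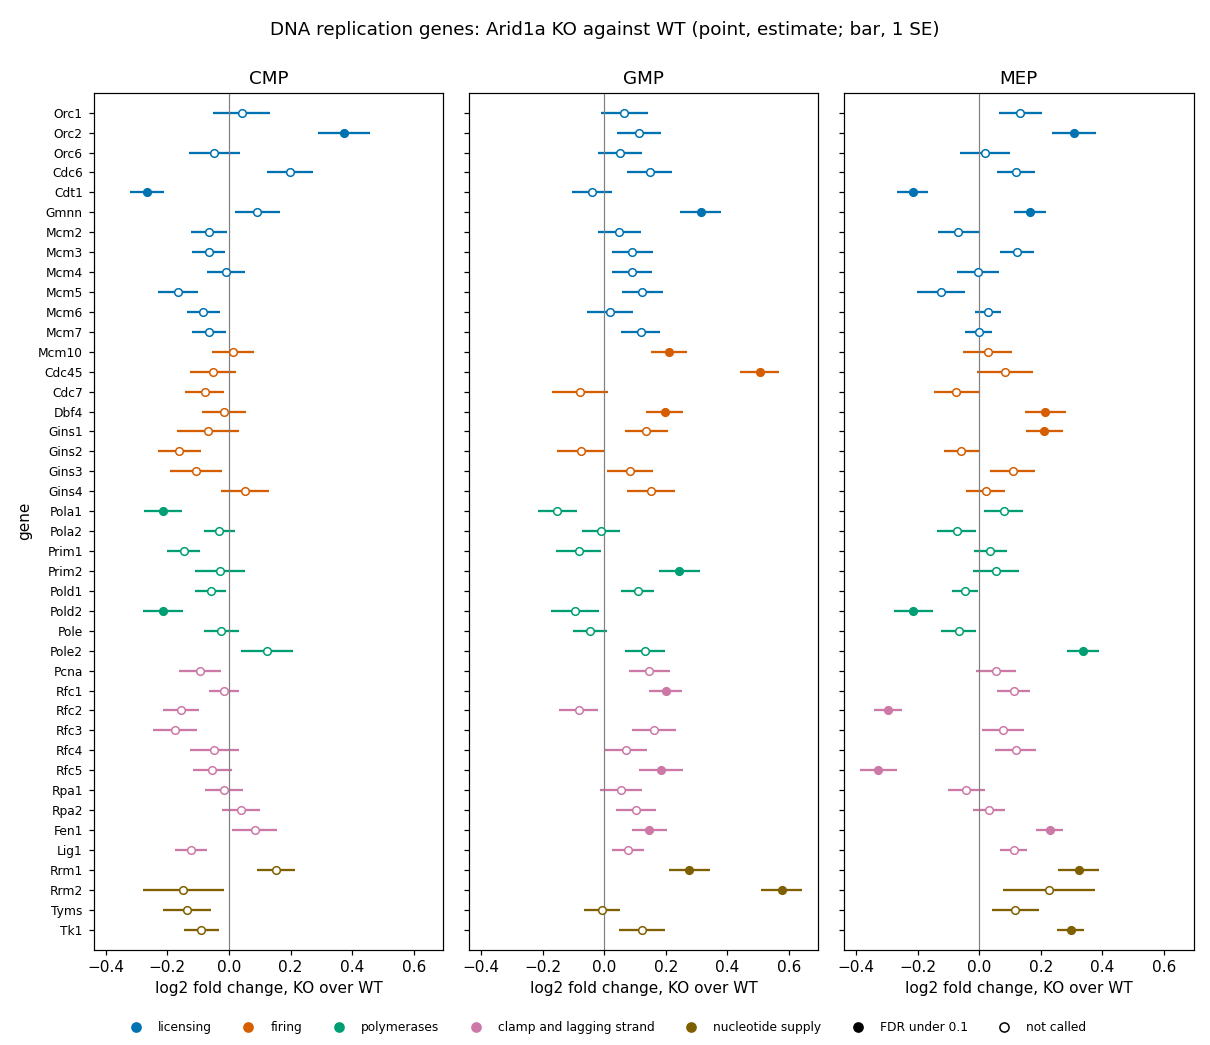
Log2 fold change of KO over WT (x axis; point, estimate; bar, 1 SE) for each of 42 genes in CMP, GMP and MEP, 3 libraries against 3; filled points passed an FDR of 0.1. All 10 filled points in GMP lie to the right of 0, of which Fen1 has the opposite sign on TPM, and Orc2 and Cdt1 lie on opposite sides in CMP and MEP.

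Licensing genes gave 2 calls in CMP, 1 in GMP and 3 in MEP, of 12. Beside the counts of this and each later role, 23.4%, 33.9% and 29.4% of all genes were called. None of the 6 subunits of the replicative helicase, Mcm2 to Mcm7, was called in any of the 3 populations; their log2 fold changes lay between -0.17 (Mcm5 in CMP) and 0.12. Origin recognition subunit Orc2 rose in CMP and MEP. In CMP it measured 85.4, 96.8 and 86.9 CPM in WT and 116, 129 and 104 CPM in KO, a log2 fold change of 0.37 ± 0.08 (SE; FDR = 0.016). In MEP the values were 187, 221 and 193 CPM in WT and 246, 260 and 239 CPM in KO (0.31 ± 0.07; FDR = 0.016). The groups did not overlap in either population. In GMP it reached 0.11 and was not called.

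Cdt1, the loader of MCM rings, showed the reverse. In CMP it measured 136, 149 and 146 CPM in WT and 119, 122 and 117 CPM in KO (-0.27 ± 0.05; FDR = 0.010). In MEP it measured 219, 228 and 208 CPM in WT and 184, 194 and 186 CPM in KO (-0.22 ± 0.05; FDR = 0.018). Every KO library lay under every WT library in both populations. Geminin (Gmnn), which inhibits Cdt1 once S phase has begun, rose in GMP from 60.75, 55.02 and 61.50 CPM to 72.8, 71.1 and 76.3 CPM (0.31 ± 0.07; FDR = 0.0081) and in MEP by 0.16 on the log2 scale. The Orc2 exons share 29.8% of their bases with Nif3l1 on the opposite strand, which changed by 0.02 in CMP and -0.14 in MEP, with no call. Whether counting used strand is not given in the sources used here.

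Firing genes had no call in CMP, 3 rises in GMP and 2 in MEP, of 8. Cdc45, a core part of the active helicase, rose the most of them in GMP, from 89.7, 95.5 and 85.3 CPM to 123, 133 and 128 CPM, that is 1.42-fold (log2 0.50 ± 0.06; FDR = 0.00041). KO values were about level with WT in CMP (-0.05) and MEP (0.08), where the groups overlapped. The Cdc45 exons share 5.96% of their bases with Ufd1 on the opposite strand. Ufd1 rose in GMP by 0.25 (FDR = 0.017) and had no call in CMP (0.18) or MEP (0.10), and its part in the Cdc45 result was not tested. Mcm10, which helps to start the helicase, rose in GMP by 0.21, and the activating subunit of the Cdc7 kinase, Dbf4, rose in GMP by 0.20. In MEP Dbf4 measured 88.0, 104 and 96.7 CPM in WT and 114, 114 and 107 CPM in KO (0.21 ± 0.07; FDR = 0.054), a call that was lost without WT 300, KO 301 or KO 304 (0.15 to 0.21; FDR 0.13 to 0.15). Cdc7 itself was not called in any of the 3 populations (-0.08, -0.08 and -0.07). The GINS subunit Gins1 rose in MEP by 0.21; Gins2, Gins3 and Gins4 had no call in the precursors.

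**Figure D3:**
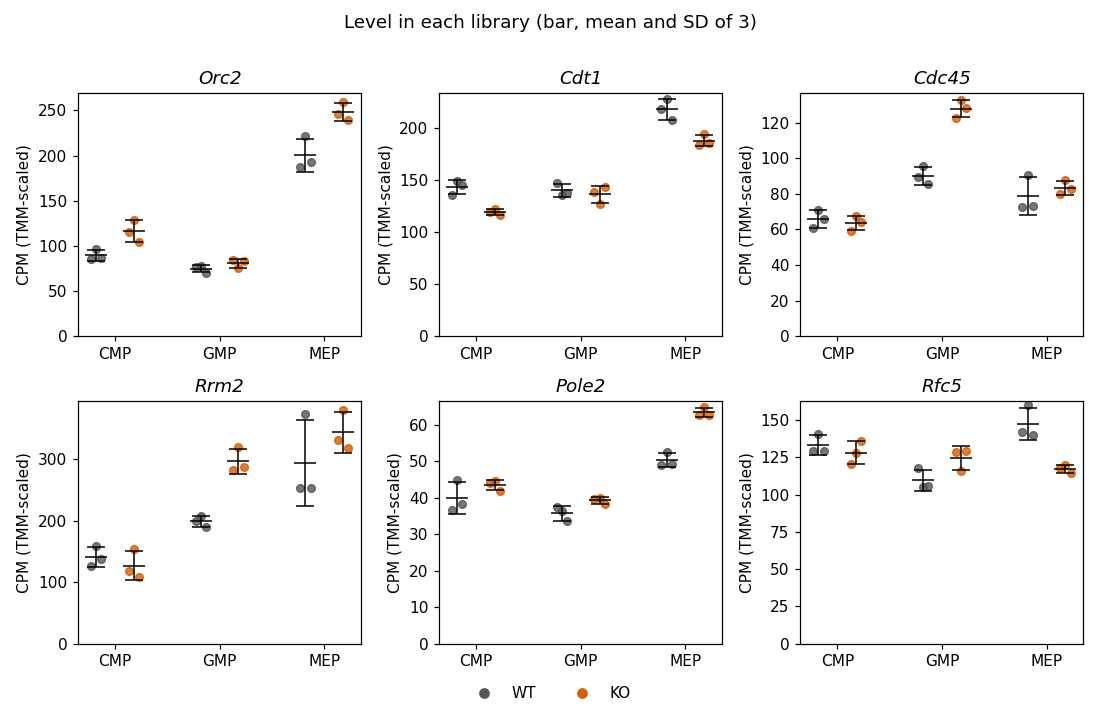
CPM of 6 genes in each of the 18 precursor libraries (y axis, from 0), by population and genotype; points are libraries and bars give the mean and SD of 3. KO and WT points separate for Cdc45 and Rrm2 in GMP, for Orc2 and Cdt1 in CMP and MEP, and for Rfc5 and Pole2 in MEP.

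Polymerase genes gave 2 falls in CMP, 1 rise in GMP, and 1 rise and 1 fall in MEP, of 8. Pola1, the catalytic subunit of polymerase alpha, fell in CMP from 201, 196 and 188 CPM to 160, 181 and 163 CPM (-0.21 ± 0.06; FDR = 0.047). Prim2, a primase subunit, rose in GMP from 58.3, 52.4 and 54.8 CPM to 68.2, 65.1 and 62.9 CPM (0.24 ± 0.07; FDR = 0.025). Pole2, a small subunit of polymerase epsilon, rose in MEP from 49.1, 52.5 and 49.1 CPM to 62.6, 64.9 and 62.7 CPM (0.34 ± 0.05; FDR = 0.0027), the largest rise of any member called there. The groups did not overlap in these 3 cases. The Pola1 call was lost without WT 300, KO 301 or KO 308 (-0.19 to -0.18; FDR 0.12 to 0.17) and that of Prim2 without KO 301 (0.20; FDR = 0.11).

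Pold2, of polymerase delta, fell in CMP (-0.21) and in MEP, where WT libraries held 168, 172 and 152 CPM and KO libraries 144, 147 and 133 CPM (-0.21 ± 0.06; FDR = 0.044). In MEP the closest pair of libraries was 147 in KO and 152 in WT, and the call was lost without WT 300, KO 301 or KO 308 (FDR = 0.12 each). Catalytic subunits Pold1 and Pole had no call in CMP, GMP or MEP and differed by at most 0.11 on the log2 scale.

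Clamp and lagging strand genes gave no call in CMP, 3 rises in GMP, and 1 rise and 2 falls in MEP, of 10. Fen1, the flap endonuclease, rose in MEP from 245.1, 263 and 248 CPM to 293, 295 and 298 CPM (0.23 ± 0.04; FDR = 0.0082), and rose in GMP by 0.15 on CPM, with the opposite sign on TPM. The large clamp loader subunit Rfc1 rose in GMP from 158, 164 and 151 CPM to 181, 183 and 178 CPM (0.20 ± 0.05; FDR = 0.025), a call lost without WT 309 (0.15; FDR = 0.15). Pcna had no call in any of the 3 (-0.09, 0.15 and 0.05).

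The small clamp loader subunit Rfc5 was called higher in 1 precursor population and lower in another, and without a block of mice no other member was. With the pairs blocked, 3 more were: Mcm5 (-0.16 in CMP, 0.12 in GMP and -0.12 in MEP), Rfc3 (-0.18 in CMP and 0.16 in GMP) and Lig1 (-0.12 in CMP and 0.11 in MEP). In CMP it measured 129, 141 and 129 CPM in WT and 120, 128 and 136 CPM in KO (-0.05). GMP libraries held 118, 105 and 106 CPM in WT and 129, 115 and 129 CPM in KO (0.18 ± 0.07; FDR = 0.086), and the groups overlapped. In MEP the values were 142, 160 and 140 CPM in WT and 118, 120 and 114 CPM in KO (-0.33 ± 0.06; FDR = 0.0065), with every KO library lower. Rfc2 fell in MEP too, by 0.30. The Rfc5 exons share 10.7% of their bases with Wsb2 on the opposite strand, and Wsb2 changed by 0.49 in GMP and by -0.95 in MEP, both called, the same directions as Rfc5; its part in the result was not tested. The Rfc5 call in GMP was lost whenever any of GMP WT 305, WT 309, KO 301 or KO 308 was left out (FDR 0.19 to 0.28).

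Nucleotide supply genes gave no call in CMP, 2 rises in GMP and 2 in MEP, of 4. Rrm2, the S phase subunit of ribonucleotide reductase, had the largest change of any member in the precursors: in GMP it went from 199, 207 and 189 CPM to 282, 319 and 286 CPM, 1.49-fold higher (log2 0.58 ± 0.07; FDR = 0.00032). In CMP it was -0.15 ± 0.13 and in MEP 0.23 ± 0.15, with overlapping groups. Rrm1, the partner subunit, rose in GMP by 0.28 and in MEP from 608, 718 and 616 CPM to 791, 831 and 807 CPM (0.32 ± 0.07; FDR = 0.011). Thymidine kinase Tk1 rose in MEP by 0.30, and thymidylate synthase Tyms, which makes thymidylate from deoxyuridylate, had no call (-0.14, -0.01 and 0.12).

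WT 305 of MEP stood high among the WT libraries, with 40 of 42 members above the WT mean. Without it 18 members rose and 4 fell (15.4% and 17.3% of all genes). WT 300 and KO 304 had the reverse effect, with 5 rises when either was left out (10.3% and 10% of all genes). In CMP, 39 of 42 members in WT 305 lay above the WT mean, and leaving it out gave 3 rises (9.76% of all genes). Without KO 304 there were 5 falls and without KO 301 just 1 (10.6% and 8.09% of all genes). Leaving out KO 308 gave 2 rises (9.02% of all genes). In GMP, leaving out WT 309 left 6 rises and 1 fall (11.7% and 12.8% of all genes). Leaving out KO 301 gave 1 fall (14.2% of all genes). With the mice blocked in the pairs of the authors' table, 3 members rose and 10 fell in CMP (14.6% and 16.7% of all genes) and 18 rose and 1 fell in GMP (22.7% and 21% of all genes). The share of members called was then 31% in CMP, beside 31.3% of all genes, and 45.2% in GMP, beside 43.7%. In MEP, 11 rose and 5 fell with the block (16% and 17.3% of all genes), which is 38.1% of members beside 33.3% of all genes. Members added in CMP included Mcm5 (-0.16), Prim1 (-0.15) and Lig1 (-0.12), with Cdc6 (0.20) among those that rose. In GMP they included Mcm7 (0.12), Pcna (0.15) and Pold1 (0.11), while Pola1 (-0.15) fell.

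Marker genes of cell types moved beside these values, and the shares of cell types in each sort were not measured. In CMP, 13 of 14 erythroid genes rose and 8 of 12 neutrophil genes fell in KO; erythroid sums were 2123 to 2587 TPM in KO and 1374 to 1520 TPM in WT, and none of the 14 was at 0. In GMP, 9 of 12 neutrophil genes rose, with sums of 40228 to 46284 TPM in KO against 30478 to 35910 TPM in WT, and all 8 mast cell, basophil and eosinophil genes fell, from 4622 to 9644 TPM in WT to 1187 to 2138 TPM in KO. In MEP, 9 of 14 erythroid genes rose and 1 fell, although their sums were 6525 to 6812 TPM in KO and 7744 to 8579 TPM in WT. Monocyte genes summed to 1412 to 1713 TPM in WT GMP and to 873 to 1096 TPM in KO GMP. Of these, Cx3cr1 went the other way, from 5.91 to 7.73 TPM in WT to 20.8 to 24.9 TPM in KO. The part of all these lists in the member results was not tested.

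The difference of the KO effect between populations was tested over all CMP, GMP and MEP libraries together, 18 in all, with mouse as a blocking term. In this fit 11 members had a higher KO effect in GMP than in CMP, where 21% of all genes were called (10.9% higher and 10% lower); 6 had a higher one in MEP than in CMP (13% called, 5.67% higher and 7.37% lower) and 7 a lower one in MEP than in GMP (26.8% called, 12.2% higher and 14.6% lower). Rrm2 (0.74 ± 0.12; FDR = 0.00081) and Cdc45 (0.56 ± 0.08; FDR = 0.00022) gave the largest differences between GMP and CMP. Mcm5, with no call in either population alone, differed by 0.29 ± 0.08 (FDR = 0.017). Rfc5 gave the largest difference between MEP and GMP, -0.52 ± 0.10 (FDR = 0.0016). Tk1 differed by 0.38 and Pola1 by 0.29 between MEP and CMP. The Cdc45, Rrm2 and Mcm5 differences between GMP and CMP, and those of Rfc5 and Cdc45 between MEP and GMP, passed without any 1 mouse. Without a single mouse the 11 ranged from 4 to 12 members: leaving out mouse 301 or 309 gave 4, and 305 or 308 gave 5. Of all genes, 7.33%, 7.05%, 8.52% and 9.25% were called higher in those fits, in that order. For MEP less CMP the 6 became 2 without 300 or 301 (4.79% and 3.45% of all genes). Without 308 or 309 they became 1 (4.01% and 3.19%). For MEP less GMP the 7 became 2 without 301, 305 or 308 (10.9%, 12.2% and 11.8% of all genes). Without 300 or 309 they became 4 (11.5% and 11.4%).

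In LT-HSC no member was called, against 0.0792% of all genes tested (0.0264% higher and 0.0528% lower); edgeR gave 18 calls over 22733 genes, and 5 members had an unadjusted p under 0.05, beside 5.19% of all genes. DESeq2 called no member there either. Of the 42 estimates 41 were positive, with a median log2 fold change of 0.52 beside -0.16 for all genes, and a median SE of 0.37. Tk1 measured 36.3 and 90.7 CPM in WT and 147 and 149 CPM in KO (1.22 ± 0.39; FDR = 0.75). Cdc7 measured 16.9 and 48.5 CPM in WT and 57.7 and 76.1 CPM in KO (1.03 ± 0.42; FDR = 0.88). For both, the KO libraries lay above the WT libraries.

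Other members with the largest estimate of their role were Prim1 (33.8 and 69.0 CPM in WT, 103 and 92.6 CPM in KO; 0.92), Lig1, the ligase that seals Okazaki fragments (68.2 and 162 CPM, then 173 and 234 CPM; 0.82), and Mcm6 (312 and 705 CPM, then 800 and 781 CPM; 0.64). The smallest were Fen1 (104 and 272 CPM in WT, 254 and 254 CPM in KO; 0.43), Tyms (114 and 117 CPM, then 151 and 113 CPM; 0.19), Mcm10 (32.5 and 75.9 CPM, then 61.7 and 60.3 CPM; 0.17), Orc2 (44.0 and 90.6 CPM, then 76.7 and 71.2 CPM; 0.14) and Pola1 (36.2 and 63.9 CPM, then 57.6 and 39.5 CPM; -0.04). In these 5 the KO values fell within or across the WT range. Of the 42, the KO libraries lay above both WT libraries for 22 and below both for 0, where 16.9% and 19.4% of all genes did.

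The WT libraries stood apart from each other. All 42 members were below the WT mean in WT S245 and above it in WT S269, by a median of 0.52 on the log2 scale each way, while KO S244 and KO S270 stood at 0.67 and 0.61. Without WT S245 the median KO effect was 0.18, with 28 of 42 positive and no call; without WT S269 it was 1.15, with 33 members called higher, where 5.76% of all genes were called higher and 3.4% lower. In both the lone WT library is assumed to vary as the KO libraries do. Other lists separated the same WT libraries. Neutrophil genes summed to 1119 TPM in WT S245 and 3815 TPM in WT S269, with 1410 and 1563 TPM in KO, and monocyte genes summed to 29.45 TPM in WT S245 and 229 TPM in WT S269, with 32.7 and 63.5 TPM in KO. Within WT, Mpo, a granule enzyme, ranged from 2.78 to 407 TPM and Elane, neutrophil elastase, from 0.80 to 378 TPM. WT S245 was also low for mitosis genes, whose sum was 697 TPM in WT S245, 1399 TPM in WT S269 and 1416 and 1472 TPM in KO. In KO, the eosinophil and mast cell list summed to 233 and 3266 TPM against 39.2 and 179 TPM in WT, most of it Prg2 and, in KO S270, Epx. The stem cell list summed to 977 and 1097 TPM in KO, lower than the 1208 and 1668 TPM in WT. The part of these lists in the result was not tested.

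**Figure D4:**
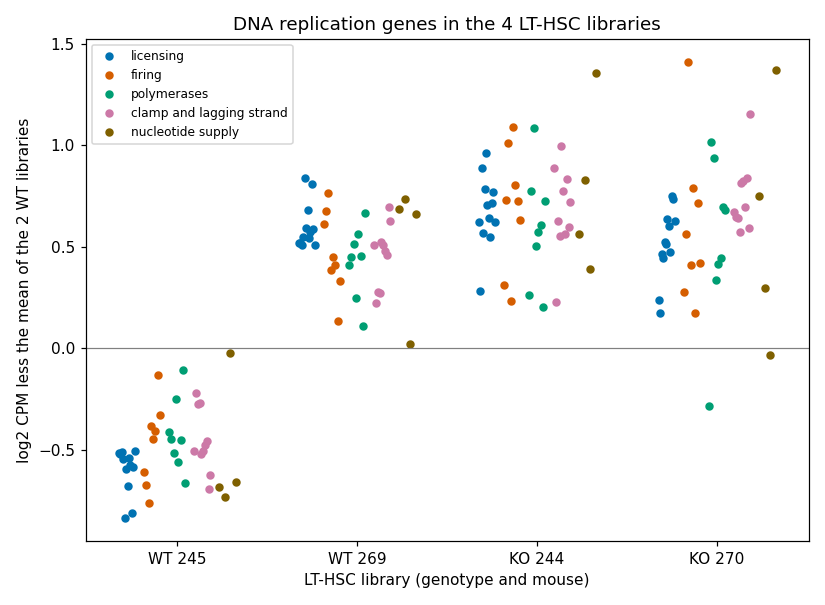
Log2 CPM of 42 genes in the 4 LT-HSC libraries, less the mean of the 2 WT libraries (y axis), coloured by role. All points of WT S245 lie below 0 and all points of WT S269 above it, and the KO S244 and KO S270 points centre at 0.67 and 0.61.

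WT levels of the members stood higher in MEP than in CMP or GMP. In the fit of the 9 WT precursor libraries, MEP held 38 members above CMP and 3 below, where 33.5% and 36.9% of all genes were called (70.4% in all). Against GMP, MEP held 37 above and 2 below (35% and 35.4%; 70.4% in all). The members' median log2 fold change was 0.47 for MEP against CMP and 0.52 for MEP against GMP, beside medians of all genes of -0.04 and -0.02. GMP against CMP gave 4 above and 8 below, where 40.9% of all genes were called (19% and 21.9%), and the median was -0.02. Each WT mouse gave the same picture, with 38, 39 and 39 members higher in MEP than in CMP. On deposited TPM, 31, 31 and 32 were higher, and 7 members called higher on CPM, including Mcm6, Mcm7, Lig1 and Rfc5, had the opposite sign. On that scale the median of all genes shifted by -0.17 between MEP and CMP.

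**Figure D5:**
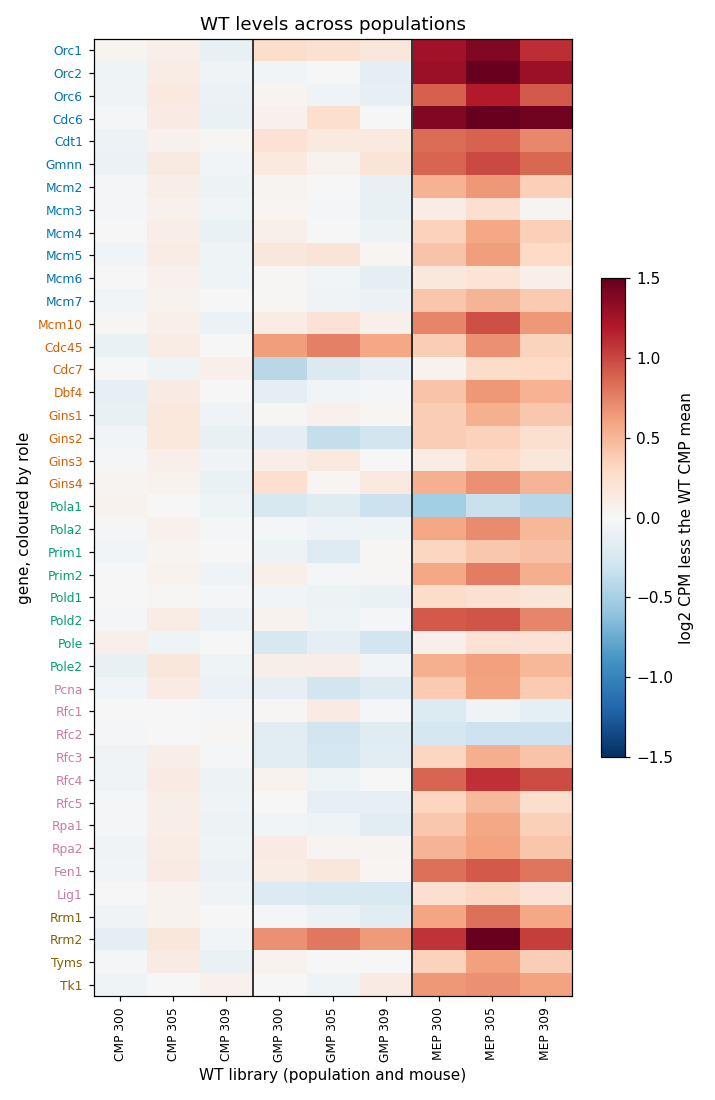
Heat map of log2 CPM less the mean of the 3 WT CMP libraries for 42 genes (rows, label coloured by role) in 9 WT libraries (columns), with the colour scale ending at -1.5 and 1.5. The MEP columns are red for most genes (7 of the 41 called against CMP have the opposite sign on TPM), with Cdc6, Orc2, Rrm2 and Orc1 the darkest, and Pola1 and Rfc2 are blue in MEP.

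The steepest differences were in licensing. Cdc6, the loader ATPase, measured 74.5, 83.0 and 70.8 CPM in CMP, 79.6, 90.6 and 75.5 CPM in GMP and 199, 231 and 207 CPM in MEP, a log2 difference of 1.48 ± 0.09 from CMP. Orc2 measured 82.3 ± 5.68, 78.9 ± 4.35 and 213 ± 19.9 CPM (SD, n = 3 each), and Orc1 20.2 ± 1.35, 23.6 ± 0.80 and 48.3 ± 4.74 CPM. CMP and GMP overlapped for Cdc6 and Orc2 but not for Orc1, whose call between them (0.22; FDR = 0.080) was lost without mouse 300 or 309 (FDR = 0.33 and 0.26). The MCM subunits differed less, from 0.13 for Mcm3, with no call, to 0.52 for Mcm2.

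Rrm2 rose stepwise, from 117, 145 and 125 CPM in CMP to 207, 222 and 200 CPM in GMP and 272, 398 and 264 CPM in MEP, with no overlap between neighbours. Cdc45 was highest in GMP, at 93.3, 102 and 90.2 CPM, against 56.3, 64.9 and 60.1 CPM in CMP and 77.8, 96.7 and 76.3 CPM in MEP; GMP and MEP overlapped and did not pass the test (-0.19; FDR = 0.12), but each of the 3 mice was higher in GMP, and with the mouse as a block the difference passed (-0.19 ± 0.06; FDR = 0.021). Pola1 ran the other way, at 186, 180 and 171 CPM in CMP, 151, 157 and 143 CPM in GMP and 126, 142 and 134 CPM in MEP, and each step passed (FDR 0.00015 to 0.036). Rfc2 was highest in CMP at 215 ± 3.07 CPM, against 186 ± 8.28 in GMP and 176 ± 3.49 in MEP, where GMP and MEP overlapped and did not pass the test (FDR = 0.20, and also 0.20 with the mouse as a block), although all 3 mice were higher in GMP. Leaving out mouse 305 gave 10 members above CMP in GMP, and leaving out 300 or 309 gave 2 (22.3%, 13% and 12.2% of all genes). The 8 below became 4, 3 and 3 without 300, 305 and 309 (15.1%, 19.3% and 14.3% of all genes). Without mouse 300 none was lower in MEP than in GMP, and without 305 there were 4 (32.6% and 35% of all genes).

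Per length, as mean TPM over the 3 WT groups, Pcna stood highest of the clamp and lagging strand genes at 495 and Rfc3 lowest at 48.5. Among licensing genes Mcm6 was highest at 324 and Orc1 lowest at 15.7. Firing genes ran from Gins3 at 14.4 to Gins2 at 70.9, polymerases from Pole2 at 37.2 to Pold1 at 133, and nucleotide supply from Tyms at 145 to Rrm1 at 175. These are levels and not differences. By group, Pcna measured 513 ± 37.6 TPM in CMP, 402 ± 26.8 in GMP and 571 ± 48.1 in MEP, and Rrm1 168 ± 5.43, 141 ± 10.9 and 215 ± 20.6 TPM. Gins2 exons share 67.3% of their bases with Gse1 on the opposite strand, and with an offset for transcript length its difference between GMP and CMP went from -0.26 to 0.04.

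Further lists of related genes gave the setting in which the members moved. Their counts stand beside the shares of all genes called higher and lower, which for GMP were 17.5% and 16.3%. For MEP these shares were 14% and 15.4%, and for CMP 10.6% and 12.8%. Of 40 other replication genes, 1 rose and 2 fell in CMP, 10 rose and 1 fell in GMP, and 4 rose and 5 fell in MEP. Mitosis genes had no call among 26 in CMP (edgeR; none had an unadjusted p under 0.05), whereas 17 rose in GMP and 16 in MEP and none fell, with medians of 0.22 in both. Of 22 genes that control or belong to the E2F and RB pathway, 6 rose and 2 fell in CMP, 11 rose and 2 fell in GMP, and 9 rose and 2 fell in MEP. The activator E2f2 rose in CMP (14.8 ± 2.24 to 23.5 ± 1.43 TPM; log2 0.53), GMP (6.03 ± 0.27 to 18.9 ± 1.88 TPM; 1.74) and MEP (17.2 ± 2.85 to 33.6 ± 2.95 TPM; 0.94).

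E2f1 fell in CMP by 0.36 and in MEP by 0.30. Ccne1, the cyclin that drives entry into S phase, rose in CMP by 1.10 and in GMP by 0.87. Tfdp2, a partner that E2F factors need to bind DNA, rose in MEP by 1.07. Skp2, an F-box protein of a ubiquitin ligase that degrades cell cycle inhibitors, fell in GMP by 0.24, and E2f5, a repressor, fell there by 0.60. Dut, which clears dUTP, fell in MEP by 0.36 and Rnaseh2b, of the enzyme that removes ribonucleotides from DNA, fell in CMP by 0.27. All of these passed the FDR of 0.1 and are log2 fold changes of KO over WT.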

How the data were processed

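Libraries of LT-HSC (SMART-Seq v4) and of CMP, GMP and MEP (poly-A TruSeq) were read as 100 bp pairs. The authors ran kallisto 0.43.1 against Ensembl 84 transcripts (mm10) and deposited estimated counts and TPM per transcript with effective lengths, from which they tested genes with DESeq2 1.18.1. A TPM is scaled by kallisto for length and to 1 total per library, so a rise of a few abundant genes lowers all others. Estimated counts were summed per gene by GENCODE vM21 (99.2% of transcripts paired; 0.23% to 0.36% of counts had no gene) and rounded. Each comparison used edgeR 4.0.16 in R 4.3.3 with TMM, filterByExpr, the quasi-likelihood test and adjustment over all genes. CPM are from the same fit. SE is the absolute log2 fold change over the square root of F.

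The 42 genes and all lists were chosen with earlier results of these data known. Values in every library are given for the largest rise and fall of each role past an FDR of 0.1 in CMP, GMP and MEP, the largest and smallest of each role in LT-HSC, members called both ways without a block, and Arid1a. WT levels name the highest and lowest mean TPM of each role, and of other lists the 2 largest rises and falls are named; all 42 may be named. Windows were printed after values were seen. Each count of calls was also taken with size factors by median of ratios, without the filter, with a length offset, with DESeq2 1.42.0 without and with that offset, with limma 3.58.1 on log2(TPM + 1) with a mean TPM over 0.5, with a replicate block, in 1 fit of 18 precursor libraries, and without each mouse in turn. The 3 populations that share a number in the labels were paired as 1 animal. WT and KO mice are paired in the order of the authors' tables, not in the labels; deviations of paired libraries correlated at 0.31 to 0.47 in CMP, 0.40 to 0.50 in GMP and -0.02 to 0.45 in MEP. The script was tested on simulated data. Figures used matplotlib.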

Additional observations from a re-analysis of the deposited data

Results flagged for a closer look

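The KO effect differed between populations for these members, each by a test of the genotype-by-population interaction (FDR under 0.1), given as the log2 effect in the population named first less that in the second; the comparisons share the 18 libraries. For GMP less CMP the differences were 0.74 for Rrm2, 0.56 for Cdc45, 0.34 for Rfc3, 0.29 for Mcm5, 0.28 for Prim2, 0.23 for Cdt1, 0.22 for Rfc1, 0.21 for Dbf4, 0.21 for Mcm10, 0.21 for Lig1 and 0.18 for Pold1. For MEP less CMP they were 0.40 for Rrm2, 0.38 for Tk1, 0.29 for Pola1, 0.25 for Rfc3, 0.23 for Lig1 and 0.23 for Dbf4. For MEP less GMP they were -0.52 for Rfc5, -0.43 for Cdc45, -0.34 for Rrm2, -0.25 for Mcm5, -0.22 for Rfc2, -0.19 for Mcm10 and -0.16 for Pold1. No group had 4 or more libraries, so no single library was tested for standing apart within its group.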

How the results depend on the processing

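Counts of members called moved by over 1.5 times in these cases, and the cause was not tested. In CMP the 1 rise became 2 with median-of-ratios size factors, without the filter, in limma and in the fit of 18 libraries, and 3 with DESeq2 and with the replicate block; the 3 falls became 0 in limma, 10 with the block and 7 in the 18-library fit. In GMP the 10 rises became 6 with the length offset, 2 in limma and 18 with the block, and the 0 falls became 1 with the offset, with DESeq2 and the offset, in limma and with the block. In MEP limma gave 4 rises and 2 falls in place of 8 and 4; the block gave 11 and 5 (38.1% of members, beside 33.3% of all genes). In LT-HSC 1 member rose without the filter, and the block called none. Of the WT contrasts, GMP against CMP gave 2 rises without the filter. Of the interactions, GMP less CMP gave 4 without the filter, MEP less CMP 3 with median-of-ratios size factors and 3 with no replicate block, and MEP less GMP 4 without the filter and 4 with no replicate block. The replicate block of mice in the WT contrasts gave 6 rises and 8 falls for GMP against CMP, 39 and 3 for MEP against CMP, and 37 and 3 for MEP against GMP.

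Leaving out 1 replicate gave ranges of 1 to 3 rises and 1 to 5 falls in CMP, 6 to 10 and 0 to 1 in GMP, 5 to 18 and 3 to 4 in MEP, and 0 to 33 and 0 to 0 in LT-HSC. Over all genes the rises then ranged from 7.25% to 9.76% in CMP, 11.7% to 15.1% in GMP and 9.03% to 15.4% in MEP. The falls over all genes ranged from 8.09% to 12%, 12.8% to 17.2% and 9.65% to 17.3%. For WT, GMP against CMP gave 2 to 10 and 3 to 4, MEP against CMP 34 to 36 and 2 to 3, and MEP against GMP 35 to 37 and 0 to 4. Interactions gave 4 to 12 and 0 to 1 for GMP less CMP, 1 to 7 and 0 to 0 for MEP less CMP, and 0 to 3 and 2 to 7 for MEP less GMP. Values that changed sign when 1 library was left out had no call with all libraries: in LT-HSC Orc2 (-0.27 to 0.72), Mcm10 (-0.29 to 0.87), Pola1 (-0.37 to 0.40), Fen1 (-0.077 to 1.26) and Tyms (-0.0089 to 0.42), and between WT GMP and CMP Mcm6 (-0.10 to 0.018), Pole2 (-0.040 to 0.16) and Tyms (-0.027 to 0.13). With the length offset Tyms there was -0.07 and Gins2, called at -0.26 without it, was 0.036. Of the calls whose values are given in every library, limma on TPM lost Cdt1 and Pola1 (CMP) and Gmnn, Prim2, Rfc1 and Rfc5 (GMP). In MEP it lost those of Cdt1, Dbf4, Orc2 and Pold2. None of these changed direction. Further calls were lost too, such as that of Pold2 in CMP, where limma gave 0 falls. Fen1 in GMP had the opposite sign on TPM. How depth limits these counts was not tested.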
